A study of Mus musculus with 15 samples.

Results

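The cytosolic ribosome of the mouse cerebellum was followed through the messenger RNAs of its protein subunits. Rows of the gene table were taken by their symbols (Rpl or Rps with a number, Rplp0 to Rplp2, and Rpsa, without pseudogene symbols) and kept at a mean of at least 1 CPM (counts scaled to a common library total) over the 15 libraries. This gave 78 genes, 45 of the large and 33 of the small subunit, out of 84 matching symbols and 24420 rows in all. All 78 had counts in every library and all entered the test. Total RNA of whole dissected cerebellum was sequenced in 5 libraries per group. The group 82Q_M120A carried Atxn1[82Q] together with CalphaLoxM120A, was of mixed C57BL/6J and FVB/nJ strain and was 8 weeks old. The group 82Q carried Atxn1[82Q] alone, and the group WT was wild type, both on FVB/nJ and 9 weeks old. Atxn1[82Q] is an expanded-polyglutamine form of the gene behind spinocerebellar ataxia type 1, called a knockin in the series' design text, and CalphaLoxM120A is an altered catalytic subunit of protein kinase A. No group carried the kinase allele alone, so in each comparison of 82Q_M120A the kinase allele, the strain and the age cannot be told apart. The labels do not say which cells express either allele or whether the 5 libraries of a group came from separate animals. The p-values therefore measure the spread between these libraries, which may be technical.

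Ribosomal proteins coat the ribosomal RNA of the 2 subunits, the small one decoding the messenger and the large one joining amino acids. Apart from the stalk proteins they are needed in equal amounts, cells degrade copies left unassembled, and free Rpl5 and Rpl11 with the 5S ribosomal RNA restrain Mdm2 and so stabilise p53. Many of their messengers start with a run of pyrimidines (a terminal oligopyrimidine tract) through which mTOR signalling and the protein Larp1 set their translation. Large neurons such as Purkinje cells are rich in ribosomes, but the genes are active in every cell type of the cerebellum.

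Close copies limit what a count of these genes can mean, and they are shown first for that reason. In 65 of the 78 members at least 50% of the 50-base windows of the coding sequence also occur letter for letter in the transcripts of another gene of the GENCODE M21 annotation (GRCm38, the mm10 assembly). In 29 members every window does so, and the median member shares windows with 8 pseudogenes. The share is 90.3% for Rpl29, spread over 81 pseudogenes, and Rpl7a has the most with 119. The sources used here do not give how a read with several matches was counted, so the levels of these 65 genes are uncertain. The stretches of coding sequence below, from the 6 protein-coding members with the largest rises in 82Q_M120A, show the problem. Each holds a 50-base window, in capitals, that other genes contain unchanged, and positions count from 1 at the first base of the start codon.
Rpl29 (chromosome 9, coding bases 152 to 231): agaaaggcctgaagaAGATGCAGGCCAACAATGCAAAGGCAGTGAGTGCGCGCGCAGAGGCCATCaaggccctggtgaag
Rps2 (chromosome 17, coding bases 416 to 495): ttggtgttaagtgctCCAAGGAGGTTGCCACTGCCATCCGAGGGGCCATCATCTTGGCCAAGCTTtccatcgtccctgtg
Rps18 (chromosome 17, coding bases 223 to 302): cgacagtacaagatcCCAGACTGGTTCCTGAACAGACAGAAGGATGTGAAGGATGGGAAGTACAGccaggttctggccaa
Rpl35a (chromosome 16, coding bases 5 to 84): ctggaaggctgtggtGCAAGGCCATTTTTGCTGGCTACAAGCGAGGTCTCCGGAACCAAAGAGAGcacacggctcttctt
Rpl3 (chromosome 15, coding bases 512 to 591): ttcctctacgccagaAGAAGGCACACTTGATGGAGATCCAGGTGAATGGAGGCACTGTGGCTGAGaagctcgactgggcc
Rps7 (chromosome 12, coding bases 372 to 451): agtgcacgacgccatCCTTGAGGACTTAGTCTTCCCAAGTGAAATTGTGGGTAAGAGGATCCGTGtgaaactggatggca
The capital window of Rpl29 occurs in 18 other genes, that of Rps2 in 16, that of Rps18 in 6, that of Rpl35a in 12, that of Rpl3 in 16 and that of Rps7 in 8. Nearly all of these are pseudogenes, and of them only 1, for Rps2, has a row of its own in the table.

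Below the floor of 1 CPM were 6 matching symbols, whose CPM are scaled by library total alone. Rpl34, just outside it, averaged 0.833 CPM, while Rps27, the lowest member inside it, averaged 1.31 ± 0.110, 1.53 ± 0.114 and 1.66 ± 0.121 CPM in 82Q_M120A, 82Q and WT (SD, n = 5 each). Rpl3l averaged 0.431, Rpl30 0.228 and Rpl39l 0.0243 CPM. Rpl26 and Rpl10l were listed at 0 in all 15 libraries, where 3 counts in the shallowest library would be 0.0783 CPM. Rpl26, Rpl30 and Rpl34 encode core proteins of every ribosome, and 87.3%, 83.1% and 72.2% of their coding windows also occur in other genes. For Rps27 the share is 100%, and Rps27rt, which holds all of its windows, was listed at 0 in every library. Rpl3l and Rpl39l, in contrast, are paralogs known from muscle and testis and share no window with another gene.

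The members together took 1.08 ± 0.039% of all counts in 82Q_M120A, 1.08 ± 0.023% in 82Q and 1.05 ± 0.028% in WT (mean ± SD, n = 5 each). Per kb of transcript (1000 bases of the shortest principal coding transcript), the median member stood at 175 CPM. Highest on that scale were Rplp1, an acidic protein of the stalk that recruits elongation factors, at 533 CPM per kb, Rps15 of the small subunit head at 414 and Rps29 at 358. Lowest were Rps27 at 4.34, Rps4l at 10.8 and Rps27l at 21.4 CPM per kb. Levels of most members were tight: the SD within groups had a median of 0.056 on the log2 scale and was above 0.2 in only 5 members, which are Rps2, Rps18, Rpl35a, Rps4l and Rpl29. Rps4x, an X-linked small subunit gene, was the tightest at 0.024. Depth ran from 38.3 to 99.4 mega counts per library. WT-5, the shallowest, stood apart within WT: its median member was 0.065 above the WT mean on the log2 scale, while the other WT libraries lay between -0.021 and -0.005.

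The comparison of 82Q with WT asks what the disease allele does on a single strain, and few ribosomal protein genes moved. Rpl41 and Rpl38 were among the falls and Rps4x rose. In all, 4 of 78 members (5.13%) were called, 1 higher and 3 lower, by edgeR's quasi-likelihood test at a Benjamini-Hochberg adjusted p under 0.05, where 18.7% of all 16808 tested genes were called. Over all tested genes 8.63% were called higher and 10.1% lower. The median log2 fold change of the members was -0.012, against 0.013 over all tested genes, and 70 of the 78 members lay within 0.1 of 0, against 8915 of the 16808 tested genes. Counts of these abundant genes are precise, with a median standard error of 0.035 on the log2 scale against 0.058 over all tested genes. At an unadjusted p under 0.05 there were 10 of the 78 members, against 5171 of the 16808 tested genes.

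Rpl41, which encodes the shortest protein of the ribosome, averaged 138 ± 9.46 CPM in 82Q and 154 ± 6.35 CPM in WT, a log2 fold change of -0.15 ± 0.04 (standard error, adjusted p = 0.0167, edgeR quasi-likelihood). The groups overlapped through 82Q-2, at 150 CPM, which lay above the lowest WT library at 148. Rpl38, which in mouse embryos is needed to translate a subset of Hox messengers, had 73.0, 76.2, 68.0, 73.5 and 69.9 CPM in the 82Q libraries, against 76.3, 77.2, 77.4, 77.6 and 83.0 CPM in WT. The groups touched without overlapping, WT-5 being the highest library of all. Its log2 fold change was -0.12 ± 0.04 (adjusted p = 0.0262, edgeR quasi-likelihood), and the call was lost without WT-5, without 82Q-3 or without 82Q-5, with adjusted p up to 0.0716. Rps4x had 201 to 208 CPM in 82Q, against 188 to 193 CPM in WT, without overlap. It rose by 0.11 ± 0.02 on the log2 scale (adjusted p = 0.00226, edgeR quasi-likelihood) and its level was 1.08-fold higher.

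**Figure D1:**
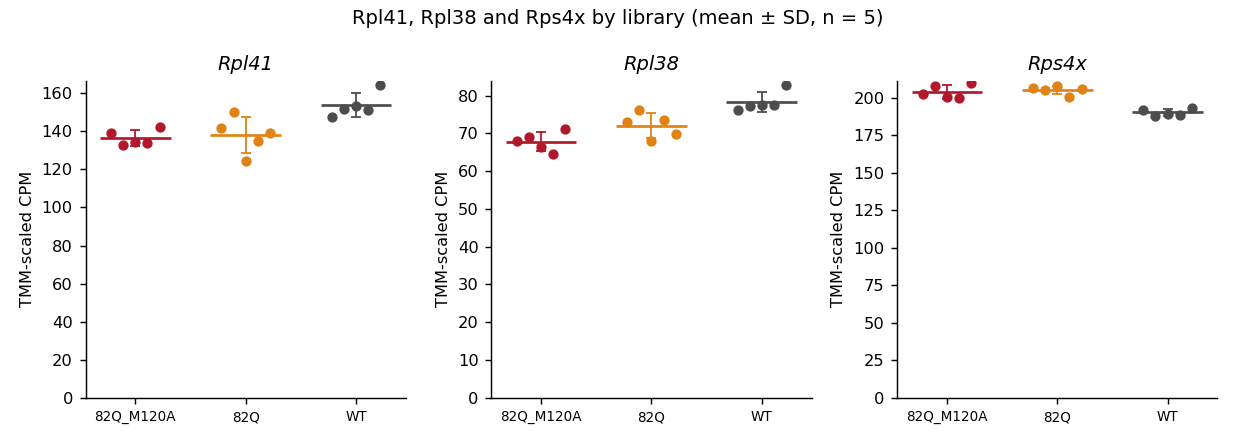
TMM-scaled CPM (linear axis from 0) of Rpl41, Rpl38 and Rps4x, which were called in 82Q against WT; points are libraries 1 to 5 of each group from left to right, lines and bars the mean ± SD (n = 5). Rpl38 averages 67.8 CPM in 82Q_M120A, 72.1 in 82Q and 78.3 in WT, while Rps4x stands above WT in both other groups.

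The stalk genes and several members with roles outside translation were not called in 82Q against WT. The stalk genes Rplp0, Rplp1 and Rplp2 had log2 fold changes of -0.01, -0.03 and -0.03, and Rpl5 and Rpl11 of 0.03 and -0.04. Rps6, the substrate of the S6 kinases downstream of mTOR, had 256 ± 8.06 CPM in 82Q and 245 ± 12.8 CPM in WT (log2 fold change 0.06, not called at an edgeR quasi-likelihood adjusted p of 0.292). Rpsa, which also serves as a laminin receptor, had 289 ± 8.07 CPM in 82Q and 289 ± 11.1 CPM in WT. The whole cerebellum was sampled, so fewer cells of a type and less RNA per cell cannot be told apart in any of these values. The summed level of 7 Purkinje cell markers was 2959 to 3710 CPM in 82Q and 7800 to 8794 CPM in WT, with all 7 markers called lower. The 6 astrocyte and Bergmann glia markers summed to 3697 to 3803 CPM in 82Q and 4570 to 4996 CPM in WT, with 2 called higher and 3 lower. Of 8 microglia markers 8 were called higher and of 6 oligodendrocyte markers 5, with summed levels of 141 to 151 and 5994 to 7261 CPM in 82Q, against 84.9 to 96.2 and 4875 to 5892 CPM in WT. Their part in the ribosomal values was not tested.

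In 82Q_M120A against WT the ribosomal protein genes split into a few large rises and many small falls. Of the 78 members 29 were called (37.2%), beside 36.4% of all tested genes, 9 of them higher and 20 lower. Over all tested genes 18.6% were called higher and 17.8% lower. The median member stood at -0.048 on the log2 scale, against 0.006 for all tested genes, and 19 members had no overlap between the groups (25.3% of all tested genes had none). Against 82Q, which differs from 82Q_M120A in the kinase allele, the strain and the age, 15 members were called (19.2%), beside 18.9% of all tested genes. Of these 8 were higher and 7 lower (10.3% and 8.63% of all tested genes), with a median of -0.035 against -0.003. Both comparisons use the same 5 libraries of 82Q_M120A, so their values are given side by side and not as separate evidence.

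Rpl29, a small basic protein of the large subunit, changed most (chr9:106429454-106431568, mm10, plus strand). It had 67.5, 73.7, 35.9, 60.8 and 67.9 CPM in 82Q_M120A-1 to 82Q_M120A-5, against 2.96, 3.1, 3.31, 2.96 and 3.27 CPM in 82Q and 3.05, 3.19, 3.03, 3.15 and 2.78 CPM in WT. Every 82Q_M120A library stood more than 10-fold above every other library, with 3511 to 6872 counts against 211 to 322 in 82Q and 104 to 245 in WT. The level was 20.03-fold higher than in WT (log2 fold change 4.32 ± 0.16, adjusted p = 6.00e-11) and 19.6-fold higher than in 82Q (4.29 ± 0.16, adjusted p = 2.13e-10, both edgeR quasi-likelihood). Between 82Q and WT it did not pass the test (3.12 ± 0.165 and 3.04 ± 0.159 CPM, a log2 change of 0.03 with an adjusted p of 0.924 in the edgeR quasi-likelihood test). The 3 rows of the table that share some of its windows, 4931440P22Rik, Gm10548 and Gm8580, hold at most 137 counts in any library. They share only 8.8%, 5.1% and 9.3% of the windows. The closest copy, Gm6344 with 74.9%, has no row, and the part of the copies in the rise was not tested. Of the 8 tested genes nearest to it, all within 58.3 kb, 6 were called against WT (36.4% of all tested genes). Against 82Q 5 of them were called (18.9% of all tested genes). The nearer ones included Abhd14a, 13.4 kb away, at 17.3 ± 0.897 CPM in 82Q_M120A and 12.1 ± 0.799 CPM in 82Q. Abhd14b, 19.7 kb away, stood at 39.5 ± 4.09 CPM in 82Q_M120A and 57.0 ± 2.81 CPM in 82Q, in the opposite direction.

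Rps2, Rps18 and Rpl35a rose in some 82Q_M120A libraries and stayed at the level of the other groups in the rest, each in its own pattern. Rps2, a small subunit protein near the messenger entry site (chr17:24718116-24721929), had 147, 164, 88.1, 80.9 and 12.8 CPM in 82Q_M120A-1 to 82Q_M120A-5, against 12.8, 19.3, 16.1, 18.9 and 16.8 CPM in 82Q and 16.1, 20.2, 13.2, 14.4 and 23.1 CPM in WT. Its library 5 was as low as the lowest of the other groups. Rps18, of the small subunit head (chr17:33951999-33956001, minus strand), had 133, 88.1, 22.1, 76.6 and 22.6 CPM in 82Q_M120A-1 to 82Q_M120A-5, against 21.2, 21.9, 19.3, 22.3 and 21.1 CPM in 82Q and 22.6, 21.5, 23, 22.5 and 23.9 CPM in WT. Libraries 3 and 5 were low here. Rpl35a, of the large subunit (chr16:33056453-33060189), had 83.1, 55.3, 49.2, 17.6 and 52.8 CPM in 82Q_M120A-1 to 82Q_M120A-5, against 19.5, 18, 22.6, 17.5 and 18.7 CPM in 82Q and 19, 17.2, 18.5, 18.6 and 21 CPM in WT. Only library 4 was low.

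The group means of these 3 genes therefore average libraries of unlike levels, and each group pair overlapped. For Rps2 the log2 fold change was 2.51 ± 0.50 against WT (adjusted p = 0.00174) and 2.55 ± 0.50 against 82Q (adjusted p = 0.00338, both edgeR quasi-likelihood). For Rps18 it was 1.59 ± 0.42 against WT (adjusted p = 0.0106) and 1.70 ± 0.42 against 82Q (adjusted p = 0.0147, both edgeR quasi-likelihood). For Rpl35a it was 1.46 ± 0.29 against WT (adjusted p = 0.00160) and 1.42 ± 0.29 against 82Q (adjusted p = 0.00406, both edgeR quasi-likelihood). With limma-voom, Rps18 was not called in either comparison and Rps2 was not called against 82Q. No call of the 3 genes was lost when any single library was left out. In 82Q and WT together they were steady, at 12.8 to 23.2 CPM for Rps2, 19.3 to 23.9 CPM for Rps18 and 17.2 to 22.7 CPM for Rpl35a. Of the 8 tested genes nearest to each, 2 were called against WT for Rps2, 1 for Rps18 and 2 for Rpl35a (36.4% of all tested genes were called). Against 82Q these were 1, 1 and 0 (18.9% of all tested genes). Snora78 and Snora64, small nucleolar RNAs within the Rps2 locus, were not called in either comparison. They had only 0.134 to 0.358 and 0.703 to 1.28 CPM over the 15 libraries, with standard errors of 0.27 and 0.16 against WT. Rows as low as these say little about the locus.

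Rps4l, Rpl3 and Rps7 rose in every 82Q_M120A library. Rps4l, annotated by GENCODE as a transcribed processed pseudogene of the Rps4 family (chr6:148354656-148355598), had 14.7, 14.6, 11.8, 8.86 and 11.5 CPM in 82Q_M120A, against 6.54, 7.91, 7.79, 8.01 and 5.77 CPM in 82Q and 6.14, 4.99, 6.23, 4.29 and 8.1 CPM in WT. Its lowest 82Q_M120A library lay just above WT-5, the highest of the rest at 8.10 CPM. Its log2 fold change was 1.06 ± 0.17 against WT (adjusted p = 0.000142) and 0.77 ± 0.16 against 82Q (adjusted p = 0.00394, both edgeR quasi-likelihood). Rpl3, a large subunit protein that reaches toward the peptidyl transferase centre (chr15:80077791-80091868, minus strand), had 336, 427, 347, 313 and 426 CPM in 82Q_M120A, against 249 to 273 CPM over 82Q and WT. It rose by 0.52 ± 0.07 on the log2 scale against WT (adjusted p = 2.05e-05) and by 0.49 ± 0.07 against 82Q (adjusted p = 0.000109, both edgeR quasi-likelihood). Rps7, one of the proteins that can bind Mdm2 (chr12:28630854-28635953, minus strand), had 124, 124, 122, 123 and 111 CPM in 82Q_M120A, against 92.8 to 103 CPM over 82Q and WT. Its log2 fold change was 0.28 ± 0.03 against WT (adjusted p = 5.87e-06) and 0.31 ± 0.03 against 82Q (adjusted p = 6.97e-06, both edgeR quasi-likelihood). Of the 8 tested genes nearest to each, 4 were called against WT for Rps4l, 6 for Rpl3 and 4 for Rps7 (36.4% of all tested genes). Against 82Q these were 2, 2 and 4 (18.9% of all tested genes). The remaining rises were small, with Rps15a at 0.12 and Rps4x at 0.10 against WT and the paralog Rpl7l1 at 0.11 against 82Q. The last of these was lost in 6 of the fits that left out a library (adjusted p up to 0.112, edgeR quasi-likelihood).

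**Figure D2:**
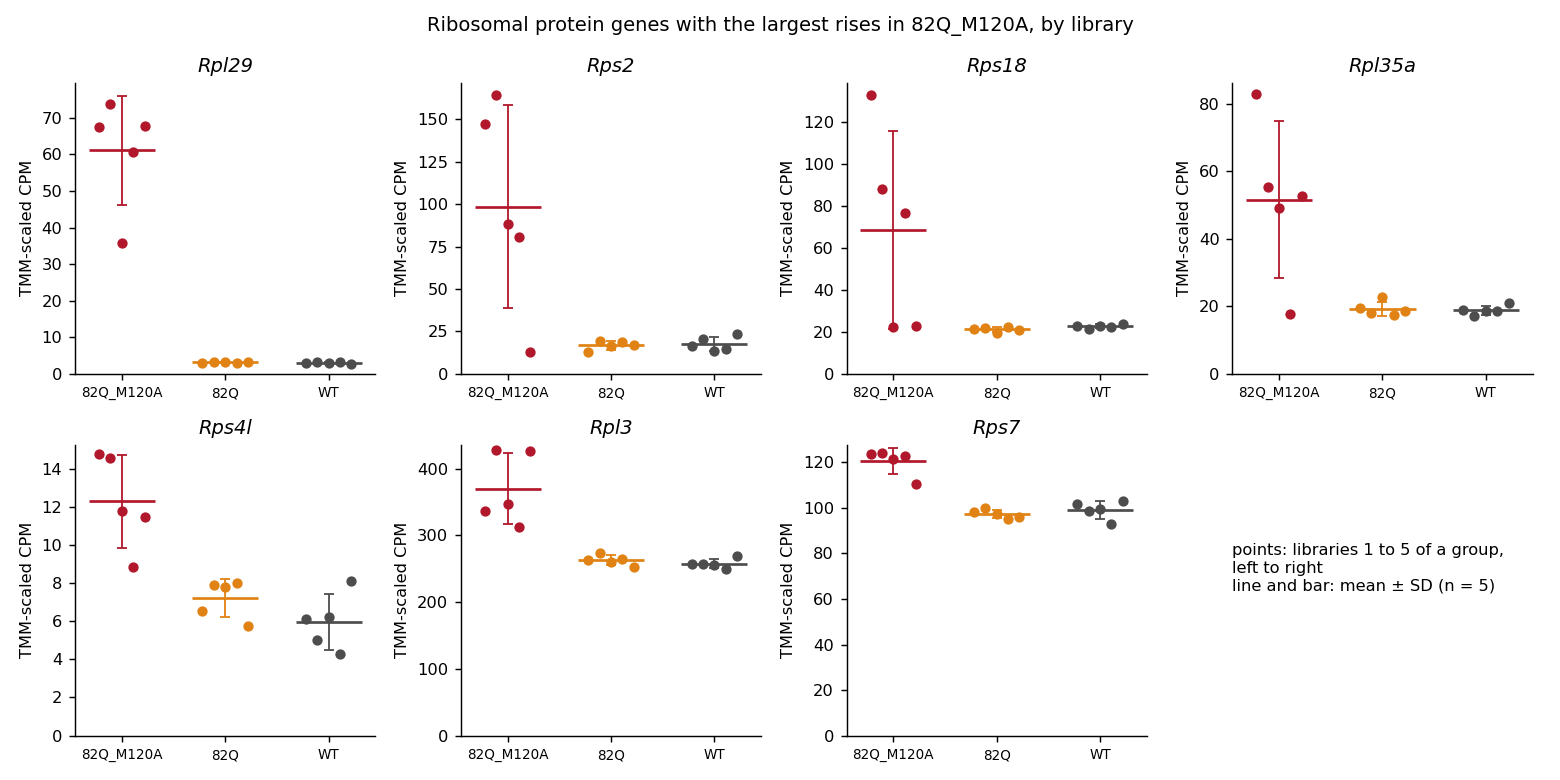
TMM-scaled CPM (linear axes from 0, a different range per panel) of the 7 members with the largest rises in 82Q_M120A; points are libraries 1 to 5 from left to right, lines and bars the mean ± SD (n = 5). Rpl29, Rps4l, Rpl3 and Rps7 are high in all 5 libraries of 82Q_M120A, while Rps2 is low in library 5, Rps18 in libraries 3 and 5 and Rpl35a in library 4.

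The falls in 82Q_M120A against WT were small, and 10 of the 20 lay in genes with a transcript under 500 bases. Among the falls against WT were those of Rps27 (log2 fold change -0.33 ± 0.10, with 85 to 141 counts per library in 82Q_M120A and 62 to 139 in WT), Rpl36 (-0.21 ± 0.05), Rpl38 (-0.21 ± 0.04), Rps28 (-0.18 ± 0.06), Rpl18 (-0.17 ± 0.04), Rpl41 (-0.17 ± 0.04) and Rps15 (-0.17 ± 0.04). Rpl36 had 74.5, 83.6, 81.5, 72.4 and 82.0 CPM in 82Q_M120A, against 89.2, 91.5, 87.2, 90.1 and 97.3 CPM in WT, without overlap. Rpl38 had 68.0, 69.1, 66.3, 64.6 and 71.2 CPM in 82Q_M120A, below each of the WT values given above (adjusted p = 0.000203, edgeR quasi-likelihood). Rps28 had 36.9, 44.7, 43.6, 36.9 and 44.5 CPM in 82Q_M120A, against 46.0 to 48.6 CPM in WT (adjusted p = 0.0231, edgeR quasi-likelihood). Libraries 1 and 4 of 82Q_M120A were the lowest, and the call was lost without either of them.

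The count of falls leaned on single libraries. It was 20 with all 15 libraries, 13 without 82Q_M120A-4, 14 without WT-5 and 25 without 82Q_M120A-2. Falls that held without any single library included Rps27, Rpl36, Rpl38, Rpl41, Rpl18, Rps15, Rpl37, Rpl19, Rpl31 and Rpl23a. Libraries differed in choroid plexus markers, 9 of which summed to 25.9 to 2107 CPM in 82Q_M120A and 41.6 to 2677 CPM in WT. Their median was 38.6 CPM in 82Q_M120A and 2282 CPM in WT. With the choroid plexus score as a covariate 9 members were higher and 16 lower. Purkinje cell markers summed to 2977 to 3967 CPM in 82Q_M120A, 6 granule cell markers to 5729 to 6248 CPM, against 4913 to 5738 CPM in WT, and oligodendrocyte markers to 6744 to 7364 CPM. Of these 7 Purkinje cell markers were called lower against WT, and 5 granule cell and 6 oligodendrocyte markers higher, and their part in the falls was not tested.

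The members were also ordered by transcript length. Of the 17 with a transcript under 500 bases, 10 were called lower and 1 higher in 82Q_M120A against WT, with a median log2 fold change of -0.131. Of the 43 with 500 or more but under 1000 bases, 10 were lower and 7 higher, with a median of -0.019. Of the 18 longer ones none was lower and Rpl3 was higher, with a median of -0.005. Some of these 18 hold a short coding sequence in a long annotated transcript, such as Rps20 (357 of 3706 bases) and Rps24 (399 of 1613). Which transcript the libraries hold was not tested, so the class of such genes is uncertain. Of all 129 tested coding genes with a transcript under 500 bases, members among them, 45 were lower and 16 higher with a median of -0.075. Of the 978 with 500 or more but under 1000 bases, 231 were lower and 146 higher with a median of -0.032, and of the 13877 longer ones, 2504 were lower and 2648 higher with a median of 0.006. The 10 falls of members under 500 bases were 6 without 82Q_M120A-4, 7 without WT-5 and 11 without 82Q_M120A-2. The 10 falls of the middle class were 7 without either 82Q_M120A-4 or WT-5, and 13 without 82Q_M120A-2. Among the longest members 1 was lower without 82Q_M120A-2, without 82Q_M120A-5 or without WT-1. Spearman's rho between log2 fold change and log2 transcript length was 0.41 over the 78 members and 0.48 without the 7 largest rises, given as a description, since the members share libraries and base composition. With an offset for length and GC content in the fit, 10 members were higher and 18 lower, with a median of -0.020. Rpl41 and Rpl38, which fell in 82Q against WT, were also under 500 bases, and with that offset the call of Rpl38 in 82Q against WT was lost (log2 fold change -0.08, with an adjusted p = 0.0780, edgeR quasi-likelihood).

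**Figure D3:**
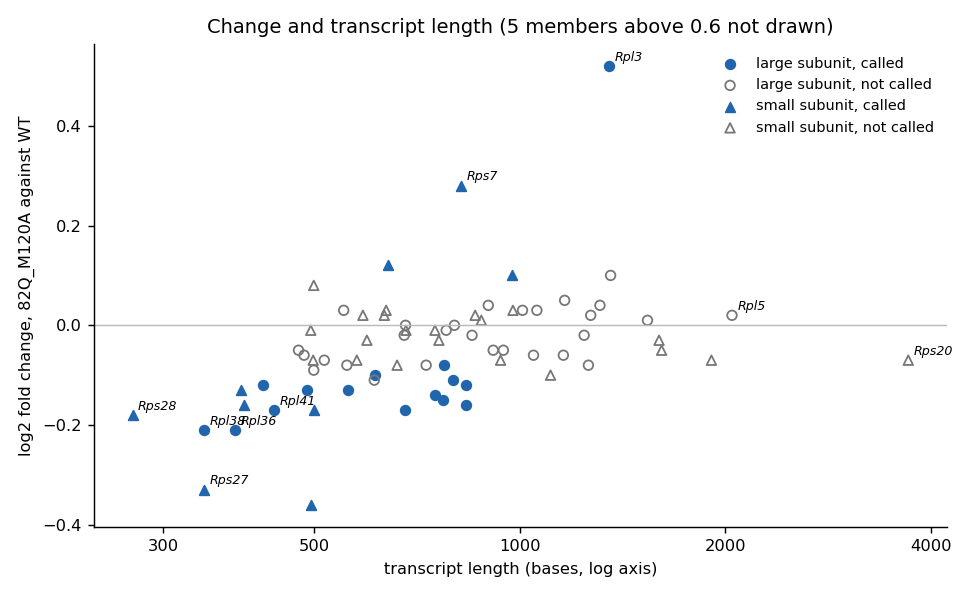
Log2 fold change of 82Q_M120A against WT (vertical) by transcript length in bases (log axis) for 73 of the 78 members; Rpl29, Rps2, Rps18, Rpl35a and Rps4l lie above the drawn range. Filled symbols are called members; 10 of the 17 members under 500 bases fell (6 without 82Q_M120A-4), and with all 15 libraries no member of 1000 bases or more was called lower.

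Against 82Q the falls of 82Q_M120A were led by Rpl10, an X-linked large subunit protein that joins late in assembly. It had 156, 175, 155, 144 and 155 CPM in 82Q_M120A, against 185, 180, 180, 177 and 179 CPM in 82Q, without overlap (log2 fold change -0.20 ± 0.04, with an adjusted p = 0.00219, edgeR quasi-likelihood). WT stood between, at 164 to 177 CPM, and 82Q was not called against it. Rpl23a at -0.11, Rpl19 at -0.11, Rps24 at -0.10, Rps25 at -0.10 and Rpl17 at -0.09 were among the others. Of the fits that left out a library, Rps25 lost its call in 8, Rpl17 in 7 and Rps24 in 2. The count of falls against 82Q was 7 with all libraries, 4 without 82Q-1 or without 82Q_M120A-3, and 11 without 82Q-3 or without 82Q_M120A-2. No fall in this comparison was left among the 13 members without close copies, and Rps4l and Rpl7l1 were the 2 rises among them. Over all tested genes 8.63% were called lower and 10.3% higher. At such shares, counts of 0 and 2 among 13 genes say little about close copies.

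The large and small subunit were set side by side in all 3 comparisons. Over all tested genes 8.63% were called higher and 10.1% lower in 82Q against WT. For 82Q_M120A these shares were 18.6% and 17.8% against WT, and 10.3% and 8.63% against 82Q. In 82Q against WT, 0 large subunit genes were higher and 2 lower with a median log2 fold change of -0.013, and 1 small subunit gene was higher and 1 lower with a median of 0.002. In 82Q_M120A against WT, 3 large subunit genes were higher and 14 lower with a median of -0.058, and 6 small subunit genes were higher and 6 lower with a median of -0.030. These were 6.67% and 31.1% of the large subunit genes. For the small subunit they were 18.2% and 18.2%, near the shares over all tested genes. The falls in this comparison were 10 large and 3 small without 82Q_M120A-4, 10 and 4 without WT-5, and 13 and 3 without 82Q_M120A-1. In 82Q_M120A against 82Q, 4 large subunit genes were higher and 4 lower, and 4 small subunit genes were higher and 3 lower, each with a median of -0.035. When single libraries were left out, the falls against 82Q were 3 to 9 in the large subunit, with 9 without 82Q-3, and 1 to 5 in the small subunit, with 1 without 82Q-1 or without 82Q_M120A-3 and 5 without 82Q_M120A-2. The difference of the medians, large minus small, was -0.015, -0.027 and 0.000 in these comparisons. Among the 13 members without close copies it was 0.034 in 82Q_M120A against WT, of opposite sign, but over few genes. The large subunit genes among them are Rpl32, Rpl4, Rpl8, Rpl22 and Rpl7l1, and the small subunit ones include the pseudogene Rps4l.

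**Figure D4:**
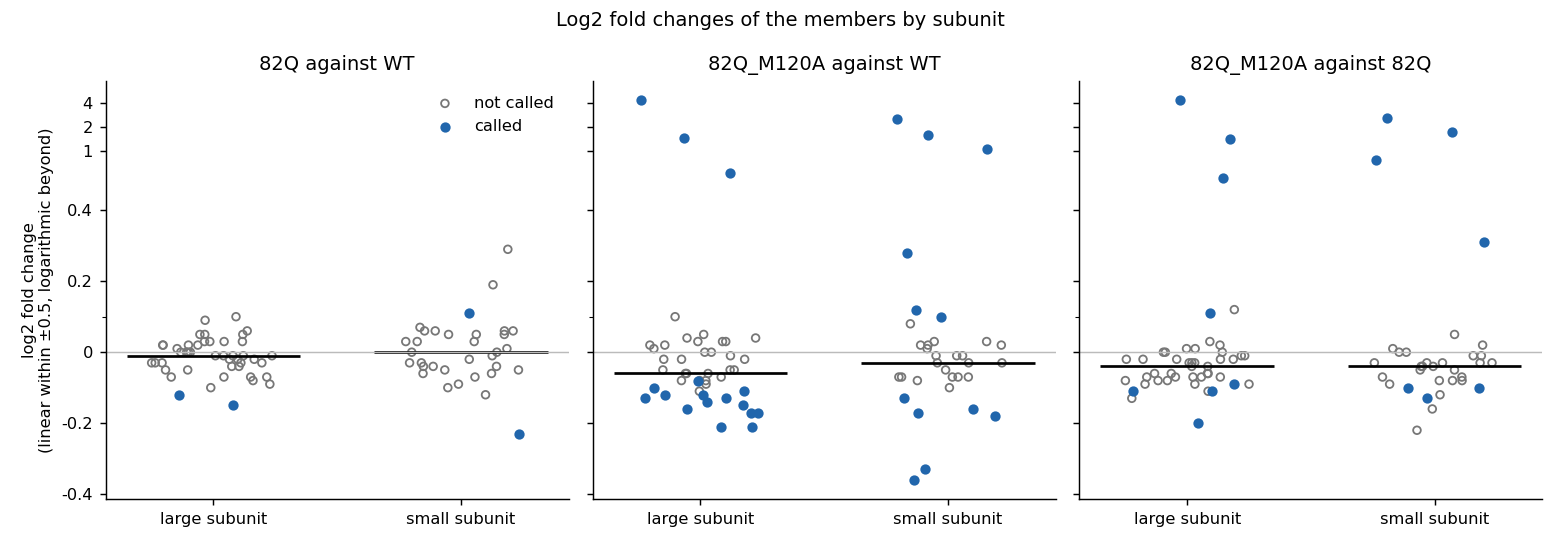
Log2 fold change of each member (vertical, linear within ±0.5 and logarithmic beyond) by subunit in the 3 comparisons; filled points are called members and lines the medians. In 82Q against WT 4 points are filled, whereas both comparisons of 82Q_M120A show 5 members above 0.7 over a mass of points just under 0.

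Within a library the balance of the subunits varied little. The counts of large subunit genes divided by those of small subunit genes gave 1.42 ± 0.029 in 82Q_M120A, 1.42 ± 0.007 in 82Q and 1.44 ± 0.006 in WT (n = 5 each). Without the 7 genes with the largest rises the ratio was 1.41 ± 0.010 in 82Q_M120A, 1.40 ± 0.006 in 82Q and 1.42 ± 0.006 in WT. The median member relative to the WT mean was -0.099 to 0.009 on the log2 scale in 82Q_M120A libraries, -0.057 to 0.030 in 82Q and -0.021 to 0.065 in WT. The 3 groups overlapped in this level, and in each library the large subunit median lay between 0.031 below and 0.010 above the small subunit median. The scaling bears on the level: with library size alone in place of TMM factors, the median of all tested genes was 0.055 and not 0.006 in 82Q_M120A against WT, and 0.063 and not 0.013 in 82Q against WT. The members then gave 16 higher and 9 lower in 82Q_M120A against WT, and 15 higher and 1 lower in 82Q against WT. A change of scaling moves all genes of a library alike. The median member therefore had to stay below that of all tested genes, which is no separate check.

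**Figure D5:**
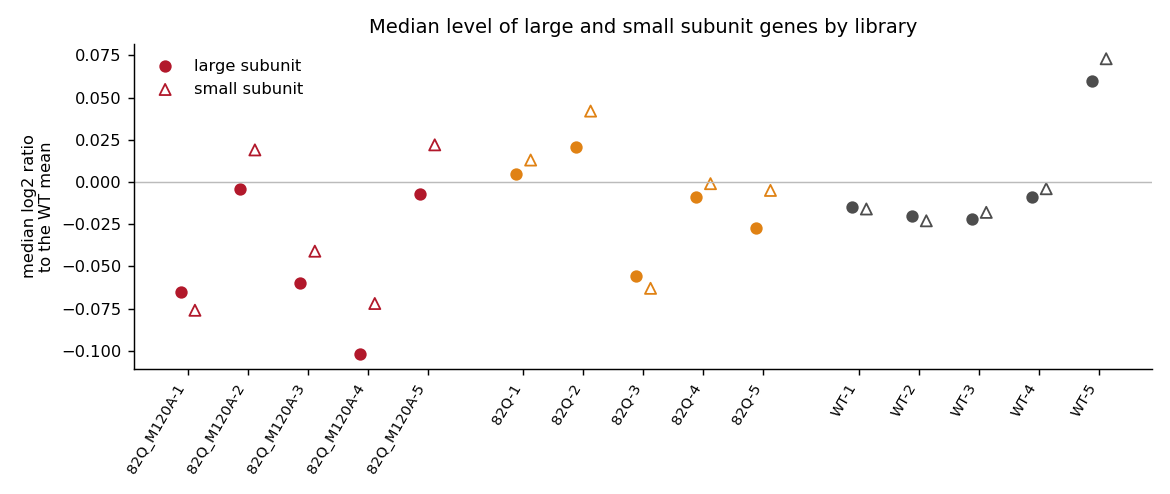
Median log2 ratio to the WT mean over the large (filled circles) and small (open triangles) subunit members in each library. Both symbols of a library lie close together, 82Q_M120A-4 is the lowest library for the large subunit at -0.102 and WT-5 the highest at 0.060.

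Beside Rps4l and Rpl7l1, described above, paralogs and family members with a role of their own were looked at one by one. Rpl22l1, a paralog of Rpl22, ranged over 43.7 to 57.6 CPM in 82Q_M120A, 42.9 to 55.3 CPM in 82Q and 43.7 to 50.6 CPM in WT. Rpl22 itself ranged over 96.1 to 103 CPM in 82Q_M120A, 97.2 to 103 CPM in 82Q and 98.9 to 108 CPM in WT, and neither gene was called in any comparison. Rps27l, a p53 target in human cells, averaged 10.9 ± 0.802, 10.8 ± 0.603 and 10.3 ± 0.504 CPM in 82Q_M120A, 82Q and WT and was not called. Rplp0 was not called either and varied by library, reaching 241 CPM in 82Q_M120A-2 and 180 CPM in 82Q-3. Rplp2 was lower in 82Q_M120A than in WT (96.7 ± 5.25 and 105 ± 3.47 CPM, log2 fold change -0.12 ± 0.04, with an adjusted p = 0.0208, edgeR quasi-likelihood). That call was lost without WT-5 or without 82Q_M120A-4 (adjusted p up to 0.0591 over the fits that left out a library), with library size only, with length and GC offsets and with the choroid plexus covariate. Rpl11 was lower, with a log2 fold change of -0.12 ± 0.03 (adjusted p = 0.0139, edgeR quasi-likelihood) and was not called with the choroid plexus covariate, while its partner Rpl5 stood at 0.02.

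Ribosomal protein genes outside the symbol pattern were looked at as well. Rpl36al, a close relative of Rpl36a, had 52.1 ± 2.50 CPM in 82Q_M120A, 58.3 ± 1.34 CPM in 82Q and 58.9 ± 2.50 CPM in WT and was called lower against both. Fau, the ubiquitin-like fusion of a small subunit protein, was lower in 82Q_M120A against WT (log2 fold change -0.14 ± 0.05), a call lost without WT-5, 82Q_M120A-1 or 82Q_M120A-4. Gnb2l1, the scaffold Rack1 of the small subunit, was not called in any comparison.

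Promoter windows were read for the 58 members that the RefSeq table of GRCm38.p6 holds, each 250 bases before and 50 bases after the annotated start. A pyrimidine tract, here a C followed by at least 6 more pyrimidines that lies between 5 bases before and 15 bases after that start on the gene's strand, occurred in 25 of 58 members (43.1%), against 10.2% of 12436 tested genes with a window. In the same stretch CTTTCC, which can be part of such a tract, occurred in 15.5% of members against 0.917%. A G followed by at least 6 more purines in that stretch occurred in 3.45% of members against 12.2%. On both strands of the whole window, CCGGAAG of the ETS family occurred in 39.7% against 16.7%, AAGATGGC of YY1 in 10.3% against 4.46%, GGGCGG of the SP family in 63.8% against 64.0% and TATAAA in 12.1% against 9.33%. Start windows of 40 bases are shown for 4 members that differ in how they moved, 20 bases on each side of the start, with the tract in capitals.
Rps18 (chr17:33955646-33955685, minus strand): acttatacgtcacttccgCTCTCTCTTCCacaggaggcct
Rpl35a (chr16:33056462-33056501, plus strand): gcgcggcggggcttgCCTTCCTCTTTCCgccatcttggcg
Rpl38 (chr11:114668560-114668599, plus strand): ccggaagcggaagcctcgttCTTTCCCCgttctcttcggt
Rplp2 (chr7:141447631-141447670, plus strand): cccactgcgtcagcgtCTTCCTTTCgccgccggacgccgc
Rps18 and Rpl35a, which rose in part of the 82Q_M120A libraries, and Rpl38 and Rplp2, which fell against WT, all hold such a tract, for Rpl35a in 1 of its 3 start windows. None was found in the start windows of Rps2 and Rps7, which rose, or of Rpl41, Rps15 and Rps28, which fell. Genes of either direction were thus found with and without a tract, and a match here describes letters only.

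The wider translation machinery gave few calls in 82Q against WT. Called translation factors were 2.78%, 13.9% and 5.56% of those tested in 82Q against WT, 82Q_M120A against WT and 82Q_M120A against 82Q. For ribosome biogenesis the shares were 4.26%, 21.3% and 10.6%, beside 18.7%, 36.4% and 18.9% of all tested genes. Of 36 tested translation factors 0 were higher and 1 lower in 82Q against WT, and in 82Q_M120A 2 were higher and 3 lower against WT, and 1 was higher and 1 lower against 82Q. Eef1a1, the main elongation factor and itself a messenger of the pyrimidine tract class, averaged 1588 ± 79.4 CPM in 82Q_M120A and 1436 ± 63.0 CPM in WT (log2 fold change 0.15 ± 0.04, with an adjusted p = 0.0101, edgeR quasi-likelihood). Eif4a1, an initiation helicase, was lower in 82Q_M120A, with log2 fold changes of -0.17 ± 0.03 against WT and -0.12 ± 0.03 against 82Q. Of 47 tested genes of ribosome biogenesis 0 were higher and 2 lower in 82Q against WT, both of them box H/ACA particle genes, Nhp2 (-0.19) and Nop10 (-0.18), the second of which was lost without WT-3, WT-5, 82Q-3 or 82Q-4. In 82Q_M120A 6 were higher and 4 lower against WT, and 4 were higher and 1 lower against 82Q. The 4 falls were 2 without 82Q_M120A-1, 82Q_M120A-3, WT-1 or WT-5, and the 4 rises were 2 without 82Q-1, 82Q_M120A-4 or 82Q_M120A-5. Polr1b, the second largest subunit of RNA polymerase I, which transcribes the ribosomal RNA, averaged 32.9 ± 0.679 CPM in 82Q_M120A, 21.8 ± 0.779 CPM in 82Q and 22.9 ± 0.373 CPM in WT. It was 1.51-fold higher in 82Q_M120A than in 82Q (log2 fold change 0.59 ± 0.03, with an adjusted p = 1.06e-09, edgeR quasi-likelihood), without overlap.

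The mitochondrial ribosome, whose proteins come from a separate set of nuclear genes, was counted in the same way. Its called genes were 13.0%, 39.0% and 14.3% of the list in 82Q against WT, 82Q_M120A against WT and 82Q_M120A against 82Q. Over all tested genes these shares were 18.7%, 36.4% and 18.9%, which also stand beside the lists that follow. Of 77 tested genes 1 was higher and 9 lower in 82Q against WT, and 4 to 10 were lower when single libraries were left out (4 without 82Q-3, and 5 without 82Q-1, 82Q-4, WT-3 or WT-5). In 82Q_M120A 6 were higher (3 without 82Q_M120A-1 or without WT-2) and 24 lower against WT, and 6 were higher and 5 lower against 82Q. Among 20 genes of growth signalling to the ribosome 4 were lower in 82Q against WT. They were Larp1, the pyrimidine tract binding protein, at -0.18 ± 0.03 (adjusted p = 0.00134), Mycn at -0.32 ± 0.10, Mtor at -0.11 ± 0.03 and Rheb at -0.11 ± 0.03 (edgeR quasi-likelihood). Of the fits that left out a library, Mycn lost its call in 6, Mtor in 3 and Rheb in 9. Without WT-2 or without WT-3 only Larp1 was left. In 82Q_M120A 2 of the 20 were higher and 5 lower against WT, and 1 was higher and 0 lower against 82Q. Of 16 tested p53 targets 4 were higher and 2 lower in 82Q against WT. Bbc3, which encodes the apoptosis protein Puma, averaged 16.9 ± 1.38 CPM in 82Q_M120A, 12.6 ± 1.34 CPM in 82Q and 8.47 ± 0.461 CPM in WT and was called in all 3 comparisons. Zmat3 and Aen, also p53 targets, were lower in 82Q than in WT, both with a log2 fold change of -0.28. In 82Q_M120A 4 of these targets were higher and 3 lower against WT, and 3 were higher and 1 lower against 82Q. Of 9 tested host RNAs of small nucleolar RNAs, Gas5 (0.15) and Snhg17 (0.17) were higher in 82Q against WT. Gas5 lost that call in 5 and Snhg17 in 6 of the fits that left out a library, and both lost it without WT-1, without WT-3 or without 82Q-3 (adjusted p up to 0.0718 and 0.0817, edgeR quasi-likelihood). In 82Q_M120A 2 were higher and 1 lower against WT, and 1 was higher and 3 lower against 82Q.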

How the data were processed

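Cerebellar RNA was measured by RNA-seq (TruSeq libraries, per the labels' protocols). The deposited values are whole-number read counts per gene symbol, made by the authors with HISAT2 2.0.1 and featureCounts on mm10, per the submitters' processing notes, which also name CASAVA 1.8, Subread, R 3.3.3 and DESeq2 1.14.1. For the annotation, the strand mode and multiply matching reads, the settings were not given in the sources used here. Column names hold no replicate numbers, and libraries are numbered within a group as the table orders them.

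From these counts, edgeR 4.0.16 (limma 3.58.1, R 4.3.3) fitted a model of group alone to the 15 libraries: TMM factors, filterByExpr, robust quasi-likelihood, two-sided, Benjamini-Hochberg over 16808 tested genes, calls at adjusted p under 0.05. Printed CPM are TMM-scaled, with SD over 5 libraries. Standard errors are approximations (size of the log2 change over the root of the F statistic). Depth was 38.3 to 99.4 mega counts, and floors cover counting error only. Tested on simulated counts, the fit recovered 98 of 100 genes changed 1.5-fold and 100 of 100 changed 2-fold. Alternatives were limma-voom, DESeq2 1.42.0, scaling by RLE or by library size alone, other filters and thresholds, length and GC offsets, a choroid plexus covariate, a fit of the compared groups only, members without close copies, and leaving out each library. Members, lists and markers were chosen with earlier results of these data known. Genes are named by rule: a fixed set, the 8 largest called rises and falls per comparison, the most and least abundant, and up to 4 called genes per other list; others were chosen after their values were seen. Lengths and positions are from GENCODE M21, promoters from RefSeq. Counts cover all members, and a few items are not reported here.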

Additional observations from a re-analysis of the deposited data

Results flagged for a closer look

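In 37 named members, 111 groups of 5 libraries were checked for a library far from the other 4 (Dixon's test at 95%). Of these groups 17 stood out, where independent checks would give about 1 in 20 by chance. The genes share the same libraries, so the checks are not independent and the 17 cannot be set against that rate. Of the 17, 8 were high values of WT-5. It was high for Rplp1 (298.3 CPM, the others 261.7 to 271.0), Rplp2 (110.9, the others 102.6 to 104.1), Rpsa (308.0, the others 281.2 to 286.1), Rps15 (235.4, the others 213.1 to 219.2) and Rps29 (157.7, the others 140.9 to 144.6). WT-5 was high as well for Rpl38 (82.98 CPM, the others 76.34 to 77.62), Rpl39 (100.5, the others 85.88 to 89.77) and Rpl7 (247.4, the others 240.2 to 241.7). WT-3 was low for Rps27 (1.447 CPM, the others 1.657 to 1.738). In 82Q_M120A, library 1 was high for the paralogs Rpl22l1 (57.63 CPM, the others 43.73 to 47.35) and Rps27l (12.27, the others 10.33 to 10.81), and library 2 for Rplp0 (240.9, the others 202.2 to 211.5). Library 4 of that group was low for Rpl19 (218.3 CPM, the others 231.9 to 237.4) and library 5 for Rps7 (110.5, the others 121.5 to 124.1). In 82Q, library 3 was high for Rpl39 (103.6 CPM, the others 88.47 to 91.19) and low for Rplp0 (179.6, the others 198.1 to 204.1), and library 5 was low for Rpl36a (44.96, the others 47.86 to 48.55).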

How the results depend on the processing

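Members called higher in 82Q against WT were 1, and 15 with library size only, 4 with length and GC offsets, 2 with DESeq2, with a mean of at least 1 CPM or with only the groups compared, and 0 among members without close copies. Those called lower were 3, and 1 with library size only, 1 at adjusted p under 0.01 and 0 without close copies. In 82Q_M120A against WT, 9 were higher, and 16 with library size only and 1 without close copies, while 20 were lower, and 9 with library size only, 10 at adjusted p under 0.01 and 2 without close copies. In 82Q_M120A against 82Q, 8 were higher, and 2 without close copies, while 7 were lower, and 1 at adjusted p under 0.01 and 0 without close copies. The settings without close copies keep only 13 members. The large minus small median was -0.027 in 82Q_M120A against WT, and -0.042 with length and GC offsets and 0.034 without close copies, and in 82Q_M120A against 82Q 0.000, and 0.053 without close copies. Library size only raised the share of rises among all called genes to 73.0%, against 46.2% with TMM, in 82Q against WT, and to 68.8%, against 51.1%, in 82Q_M120A against WT. For the other moves the cause was not tested. Leaving out each library gave 1 to 2 higher and 2 to 3 lower in 82Q against WT, 9 to 10 and 13 to 25 in 82Q_M120A against WT, and 7 to 8 and 4 to 11 in 82Q_M120A against 82Q. The large minus small median then ran from -0.022 to -0.007, from -0.039 to -0.025 and from -0.011 to 0.009 in these comparisons. No fold change of a named member that was called changed sign under any of these settings. No paired analysis was possible because the columns of the table carry no replicate numbers.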
